A study of Homo sapiens with 6 samples.

Results

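SRPIN803 is known to inhibit both SRPK1, which phosphorylates SR splicing factors, and protein kinase CK2. The data described here are the transcripts of the kinases the compound acts on and of their close relatives, namely SRPK1, SRPK2 and SRPK3 and the CK2 subunit genes CSNK2A1, CSNK2A2 and CSNK2B. They were measured by every probe set whose platform annotation names 1 of these genes and no other. These 6 genes, of 19775 that a probe set names alone, gave 16 of 54613 probe sets, with 2 for SRPK1, 6 for SRPK2, 1 for SRPK3, 4 for CSNK2A1, 2 for CSNK2A2 and 1 for CSNK2B. Another 2 probe sets name CSNK2A1 or CSNK2B together with a neighbouring or unrelated gene and were left out.

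RNA came from ARPE-19, an established human line derived from retinal pigment epithelium, hybridised to 6 Affymetrix arrays. The 3 control arrays came from cells given 0.1% DMSO, the solvent, and the 3 treated arrays from cells exposed to 10 µM of SRPIN803, all for 4 h in medium with 10% serum. The labels do not tell whether replicates were separate cultures, so each p-value measures the spread between these arrays, which may be technical. Levels are RMA values on the log2 scale, where the median probe set lies at 5.26, and a change is the SRPIN803 mean minus the DMSO mean.

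SRPK kinases place phosphates on the serines of arginine-serine repeats in SR proteins, which carries these splicing factors into the nucleus and governs their activity on pre-mRNA. In pigment epithelium SRPK1 is best known for acting through the SR protein SRSF1 on the splice site used in the last exon of VEGFA. CK2 is a constitutively active kinase built from catalytic subunits, alpha (CSNK2A1) or alpha prime (CSNK2A2), held together by a dimer of the regulatory beta subunit (CSNK2B). It phosphorylates a very wide range of proteins. An inhibitor of kinase activity need not alter the transcript of the kinase, and the arrays measured transcripts alone.

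The arrays were close to each other, with medians of 5.25 to 5.27 and correlations over probe sets of 0.9957 to 0.9977 within groups and 0.9940 to 0.9961 between them. Of 12 genes fixed as markers of retinal pigment epithelium, 8 lay above the median level. The transcription factor genes OTX2 and MITF stood at 10.47 and 10.22, while RPE65 and LRAT, enzymes of the visual cycle, stood at 2.33 and 2.83, near the bottom of the scale. The sum of the unlogged levels of these markers ran from 11.41 to 11.54 (log2) in DMSO and from 11.69 to 11.74 in SRPIN803. Such a sum mainly reads the brightest markers, OTX2 and MITF, which changed by 0.17 and 0.35. RPE65, RLBP1 and TTR went the other way, at -0.18, -0.14 and -0.02, and the other markers had higher means in SRPIN803. Of the 12, only MITF was called, and it was higher (0.35 ± 0.07, limma's adjusted p = 0.0312). The part of these markers in the results below was not tested. RNA was pooled over each culture, so fewer expressing cells and less RNA per cell cannot be told apart.

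No SRPK or CK2 transcript passed the test for a change after 4 h of SRPIN803. By limma, 0 of the 16 probe sets were called at a Benjamini-Hochberg adjusted p under 0.05, where 2.22% of all probe sets were called. At an unadjusted p under 0.05 there was 1 of 16, against 15.6% of all probe sets. The probe set means were higher in SRPIN803 for 10 and lower for 6, and 9 of the 16 changed by less than 0.05 in either direction. The median absolute change was 0.034, against 0.097 over the brighter part of all probe sets, those no dimmer than the median. A p that misses the threshold does not show that a transcript was unchanged, so the 95% intervals are given as bounds. They lay inside a 1.5-fold change in either direction for 15 of the 16, against 90.7% of those brighter probe sets. They lay inside a 1.2-fold change for 9 of the 16, against 37% of them.

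**Figure D1:**
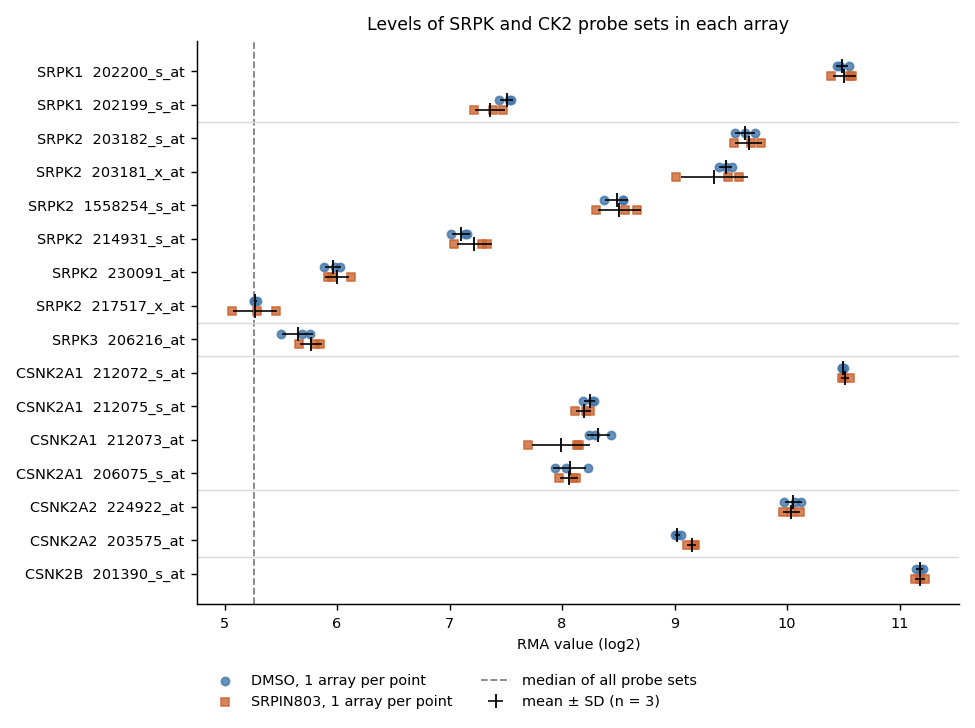
RMA values (log2, horizontal axis) of the 16 probe sets of SRPK1, SRPK2, SRPK3, CSNK2A1, CSNK2A2 and CSNK2B, with 1 point per array (DMSO circles, SRPIN803 squares), the mean ± SD of each group of 3 arrays, and the median of all probe sets as a dashed line at 5.26. The groups overlapped in all rows but those of the CSNK2A1 probe set 212073_at, lower in SRPIN803, and the CSNK2A2 probe set 203575_at, higher.

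SRPK1, the kinase the compound is named for, was measured by probe sets 202200_s_at and 202199_s_at. The brighter one, 202200_s_at, read 10.44, 10.55 and 10.47 in the DMSO arrays and 10.57, 10.39 and 10.56 in the SRPIN803 arrays. The treated arrays enclosed the controls, with SRPIN803 replicate 2 the lowest of all 6. The change was 0.02 ± 0.08 (limma's SE), with a 95% interval of -0.16 to 0.20, which is 0.896-fold to 1.15-fold (adjusted p = 0.940). In DMSO this probe set stood at the 94.5th percentile of all probe sets. The dimmer one, 202199_s_at, read 7.55, 7.44 and 7.53 in DMSO and 7.48, 7.39 and 7.22 in SRPIN803. Its treated arrays lay lower except for 1 that fell within the control range, and the change was -0.15 ± 0.09 (interval -0.34 to 0.05, adjusted p = 0.484). The difference in change between the probe sets of SRPK1 was not called (limma's diffSplice with Simes adjustment, adjusted p = 0.473).

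SRPK2, the broadly expressed paralog of SRPK1, had the most probe sets, and their DMSO levels ran from 5.27 to 9.63. The brightest, 203182_s_at, read 9.54, 9.71 and 9.63 in DMSO and 9.53, 9.68 and 9.76 in SRPIN803, so the groups overlapped across most of their range. It changed by 0.03 ± 0.09 (interval -0.17 to 0.23, adjusted p = 0.917). Probe set 203181_x_at, close to it in level, read 9.39, 9.51 and 9.46 in DMSO and 9.48, 9.01 and 9.57 in SRPIN803. SRPIN803 replicate 2 stood 0.38 below the next lowest array there, and the other treated arrays lay among or just above the controls. Its change was -0.10 ± 0.14 over all arrays and 0.07 without that replicate. The suffix _x_at marks probe sets whose probes can also bind other transcripts, and 217517_x_at, the dimmest of SRPK2, carries it too.

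None of the remaining SRPK2 probe sets had a called change. The changes were 0.03 ± 0.11 for 1558254_s_at, 0.12 ± 0.10 for 214931_s_at, 0.04 ± 0.08 for 230091_at and 0.00094 ± 0.10 for 217517_x_at, with adjusted p between 0.644 and 0.998. Of these, 214931_s_at had DMSO values of 7.14, 7.01 and 7.16 and SRPIN803 values of 7.04, 7.33 and 7.29. Both of its highest arrays were treated ones, while the other treated array fell within the control range. Probe set 217517_x_at read 5.26, 5.27 and 5.29 in DMSO and 5.07, 5.46 and 5.29 in SRPIN803, with the treated arrays on both sides of the controls. In all 6 SRPK2 probe sets the SD was larger among treated arrays than among controls, as it was in 14 of the 16 and in 60.7% of the brighter probe sets of the whole table. The 4 SRPK2 probe sets that entered the test for unequal change did not move apart (adjusted p = 0.927).

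SRPK3, known as the muscle form of the family, had the single probe set 206216_at. It read 5.76, 5.50 and 5.69 in DMSO and 5.66, 5.85 and 5.80 in SRPIN803, and the groups overlapped. Its change was 0.12 ± 0.09 (interval -0.09 to 0.34, adjusted p = 0.610). The DMSO mean of 5.65 ± 0.14 (SD, n = 3) stood at the 55.7th percentile of all probe sets, and the values carry no detection call, so whether SRPK3 was expressed was not tested. Of 6 skeletal muscle markers fixed for comparison, 1 lay above the median level, and their levels ran from 2.74 to 5.41.

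CSNK2A1, which encodes the alpha catalytic subunit of CK2, gave the steadiest values and also the largest change among the 16 probe sets. The brightest probe set, 212072_s_at, read 10.49, 10.49 and 10.50 in DMSO and 10.48, 10.51 and 10.56 in SRPIN803. These 6 arrays spanned 0.071 in all, and the change was 0.02 ± 0.06 (interval -0.13 to 0.17, adjusted p = 0.925). Probe sets 212075_s_at and 206075_s_at, at DMSO levels of 8.25 and 8.07, changed by -0.05 ± 0.07 and -0.00029 ± 0.094, and their groups overlapped. CSNK2A1 has a near-identical intronless copy, CSNK2A3, whose transcripts the same probes could bind, so these values are uncertain to that extent.

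The fourth CSNK2A1 probe set, 212073_at, was lower in every treated array. It read 8.24, 8.44 and 8.29 in DMSO and 8.14, 7.69 and 8.15 in SRPIN803. The groups did not overlap, but SRPIN803 replicates 1 and 3 lay only 0.09 to 0.10 below the lowest control, and replicate 2 lay far below both. The change was -0.33 ± 0.13, a fold of 0.796 with a 95% interval of 0.645 to 0.981, and it was not called (limma's unadjusted p = 0.0361, adjusted p = 0.275). Without SRPIN803 replicate 2 the change was -0.18 (adjusted p = 0.400), and with any other array left out it ran from -0.41 to -0.27. Relative to the other CSNK2A1 probe sets its change was -0.32, which was not called (diffSplice, adjusted p = 0.153 for the probe set and 0.207 for the gene, where 3.36% of 5535 genes were called).

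SRPIN803 replicate 2 was the array that stood apart in both 212073_at and the SRPK2 probe set 203181_x_at. It gave the lowest value of the 6 arrays in 4 of the 16 probe sets and the highest in 5, so it was not low throughout. Among genes of the lists below, it also lay far under the other arrays in TOP2A, EIF5 and TNPO3, chosen after their values were seen. It read 10.36, 11.17 and 8.86 there, where the next lowest arrays read 11.45, 11.59 and 9.27. The difference between the 5' and 3' control probe sets of actin, which falls with RNA breakdown and incomplete labelling, was -1.46 in that array. The other arrays ran from -2.16 to -1.41, so this array lay within their range. The part of RNA quality in these values was not tested.

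**Figure D2:**
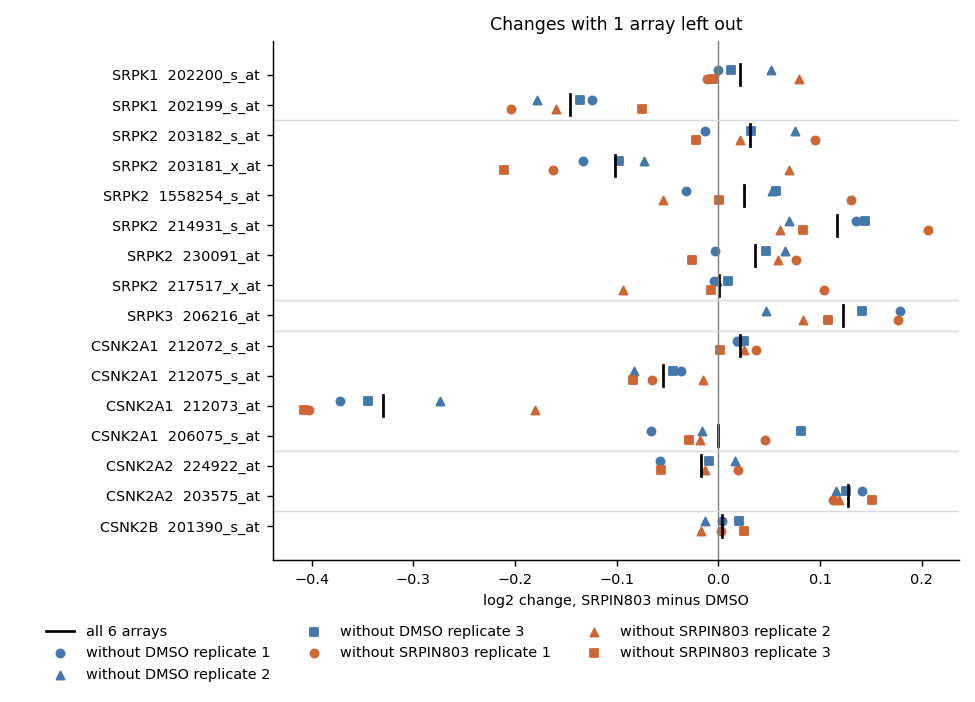
Change of each probe set (log2, SRPIN803 minus DMSO, horizontal axis) with all 6 arrays (black bars) and with 1 array left out (points, blue for a DMSO and orange for an SRPIN803 array). Leaving out SRPIN803 replicate 2 (orange triangles) moved the CSNK2A1 probe set 212073_at from -0.33 to -0.18 and the SRPK2 probe set 203181_x_at from -0.10 to 0.07.

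CSNK2A2, the alpha prime catalytic subunit gene, had probe sets 224922_at and 203575_at. The brighter, 224922_at, read 9.97, 10.12 and 10.07 in DMSO and 9.97, 10.03 and 10.12 in SRPIN803, with the groups covering the same range. It changed by -0.02 ± 0.08 (interval -0.19 to 0.16, adjusted p = 0.952). The dimmer, 203575_at, read 9.05, 9.00 and 9.02 in DMSO and 9.18, 9.17 and 9.11 in SRPIN803. Every treated array lay above every control, by a small margin. The change was 0.13 ± 0.06, a fold of 1.09 with an interval of 0.984 to 1.21, and it was not called (adjusted p = 0.409). Leaving out any 1 array gave 0.11 to 0.15. The CSNK2A2 probe sets did not move apart past the threshold (adjusted p = 0.435). Groups that did not overlap, here 2 of 16 probe sets with 1 in each direction, were found in 21.5% of all probe sets.

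CSNK2B, which encodes the regulatory beta subunit, was read by the single probe set 201390_s_at at the 96.6th percentile, the highest of the 16. It read 11.18, 11.15 and 11.21 in DMSO and 11.18, 11.22 and 11.14 in SRPIN803, so the groups covered the same range. Its change was 0.0034 ± 0.066 (interval -0.15 to 0.16, adjusted p = 0.990), which bounds a change in either direction to 0.902-fold to 1.11-fold.

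**Figure D3:**
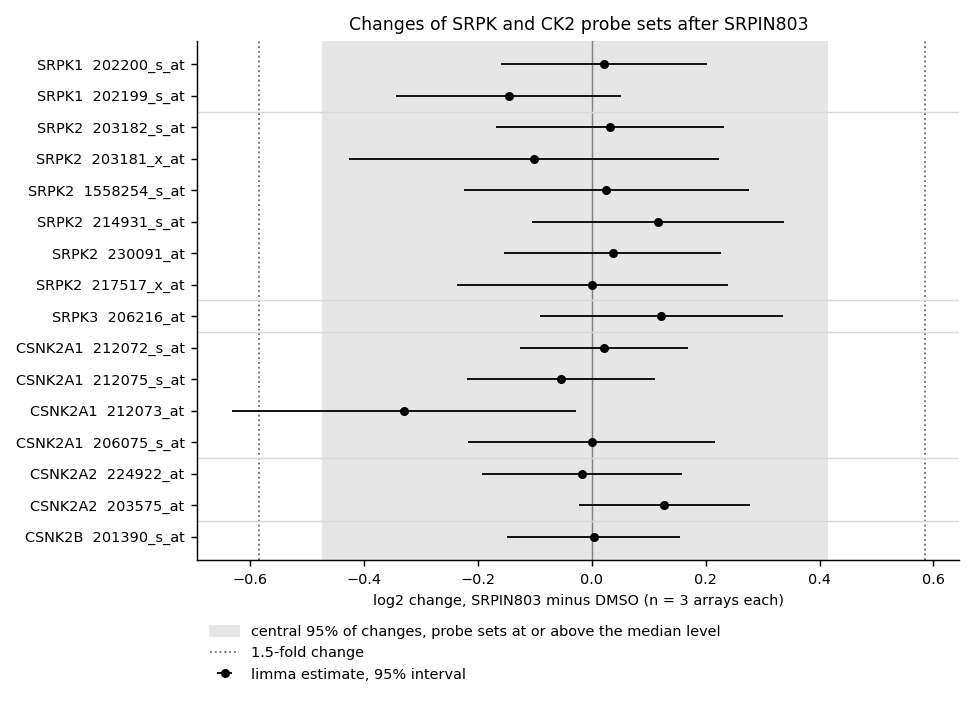
Change of each probe set after SRPIN803 (points, log2, SRPIN803 minus DMSO, 3 arrays each) with limma's 95% interval, the central 95% of changes over all probe sets no dimmer than the median in grey (-0.47 to 0.41), and a 1.5-fold change as dotted lines. All 16 estimates lie inside the grey band, and the interval of the CSNK2A1 probe set 212073_at, from -0.63 to -0.03, is the one that reaches past a 1.5-fold change.

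The relative abundance of the paralogs cannot be read from these levels, because each probe set binds its target with its own strength. Probe sets of 1 gene differed in their DMSO mean by 2.98 for SRPK1, 4.36 for SRPK2, 2.43 for CSNK2A1 and 1.03 for CSNK2A2, on the log2 scale. The brightest probe sets of SRPK1 and SRPK2 stood at 10.49 ± 0.05 and 9.63 ± 0.09, and those of CSNK2A1, CSNK2A2 and CSNK2B at 10.49 ± 0.0074, 10.06 ± 0.07 and 11.18 ± 0.03 (SD, n = 3 DMSO arrays). The gaps between genes were smaller than the gaps within SRPK1, SRPK2 and CSNK2A1, so no order of transcript abundance is given. All of these brightest probe sets lay above the 90th percentile in DMSO, while that of SRPK3 lay at the 55.7th.

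Whether paralogs changed unequally can be asked within each array, where the strength of a probe set cancels. The log2 difference SRPK2 minus SRPK1 between brightest probe sets changed by 0.01 after SRPIN803 (95% interval -0.27 to 0.29, exact permutation test, two-sided, p = 1). That of CSNK2A2 minus CSNK2A1 changed by -0.04 (-0.17 to 0.09, exact p = 0.4), and that of the beta against the alpha subunit gene, CSNK2B minus CSNK2A1, by -0.02 (-0.14 to 0.11, exact p = 0.9). Each exact p adjusted over these 3 pairs was 1, and 3 arrays against 3 cannot go below p = 0.1. With the mean of all probe sets of each gene in place of the brightest, the CSNK2A2 minus CSNK2A1 difference turned to 0.15 (exact p = 0.1), since this mean includes 212073_at and 203575_at, and CSNK2B minus CSNK2A1 turned to 0.09 (exact p = 0.3).

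The array-to-array pattern of each kinase was also set against other genes, as a description of 6 arrays. The genes most like each member over the 6 arrays were ranked by Pearson's r, among 5416 genes at or above the median level whose arrays spanned at least 0.3. For SRPK1 they were RPL7AP10 (r = 0.986) and GAS2L2 (r = 0.980), for SRPK2 RPL7AP9 (r = 0.977) and RHOBTB1 (r = 0.975), and for SRPK3 LIME1 (r = 0.987) and BAX (r = 0.979). For CSNK2A1 they were TMEM182 (r = 0.990) and USP53 (r = 0.975), for CSNK2A2 SLC16A4 (r = 0.976) and ATP11A (r = 0.963), and for CSNK2B GGT7 (r = 0.977) and MAN2C1 (r = 0.947). These values were picked as the highest of 5416 for each member, the members' own arrays spanned only 0.071 to 0.35, and no test was made. Between 17 and 46 genes passed r = 0.9 for each member.

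The genes around these kinases were read by 1 value per gene, its brightest probe set, where limma called 5.84% of 19775 genes, 3.46% higher and 2.37% lower. This fit adjusts over fewer tests than the fit of all 54613 probe sets used above. In that fit the same probe sets of SRSF3, CLK4 and JUN were not called (limma's adjusted p = 0.103, 0.0926 and 0.0840). Those of SRSF7, SRSF8, NFKBIA and NOLC1 were called in both. Of the SR proteins, the substrates of SRPK kinases, 4 of the 10 measured were called lower and 0 were called higher, with a median change of -0.15 against 0.02 over all genes. SRSF7 changed by -0.39 ± 0.06, SRSF8 by -0.32 ± 0.05 and SRSF3 by -0.29 ± 0.07 (limma's adjusted p = 0.0141, 0.0169 and 0.0498). The values of SRSF7 and SRSF8 come from _x_at probe sets, whose probes can also bind other transcripts. The other probe sets of SRSF8 ran from -0.33 to -0.17. SRSF6, outside the naming rule and given because the count is small, was at -0.25 ± 0.05 (adjusted p = 0.0423). Whether its probe sets were called in the fit of all probe sets, or its call held with arrays left out, is not given here. The count was 0 to 2 with any 1 array left out, namely 0 without DMSO replicate 1 or 2 or SRPIN803 replicate 3, 1 without DMSO replicate 3, and 2 without SRPIN803 replicate 1 or 2. Over all genes the number called fell from 1154 to between 324 and 687 in those runs. The changes there ran from -0.42 to -0.36 for SRSF7, -0.33 to -0.31 for SRSF8 and -0.34 to -0.27 for SRSF3. The SR protein count was 0 with the mean of all probe sets per gene, where 886 genes were called. SRSF3 lost the call with each of the 6 arrays left out in turn (limma's adjusted p up to 0.1496) and after quantile normalization (0.0547). SRSF8 lost it without DMSO replicate 1, 2 or 3 or SRPIN803 replicate 3 (adjusted p up to 0.0748), and SRSF7 when either of DMSO replicates 1 and 2 or the third SRPIN803 array was left out (at most 0.0598).

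SRSF7, which shuttles between nucleus and cytoplasm, read 11.96, 11.90 and 11.84 in DMSO and 11.57, 11.48 and 11.48 in SRPIN803. The groups were clearly apart there. SRSF3, the smallest SR protein, read 12.48, 12.44 and 12.36 in DMSO and 12.23, 12.08 and 12.08 in SRPIN803, also without overlap. The other SRSF7 probe sets, at levels of 9.47, 8.57 and 6.31, changed by -0.41, -0.37 and 0.18. Those of SRSF3, at levels of 11.63, 10.47, 6.69, 6.04 and 3.16, changed by -0.30, -0.26, -0.49, -0.03 and 0.08. Of these, the fit of all probe sets called only SRSF7 at -0.41 and SRSF3 at -0.49 (limma's adjusted p = 0.0452 and 0.0303). SRSF1, the SR protein most closely tied to SRPK1, was at -0.11 ± 0.06 and was not called (adjusted p = 0.349). It was chosen for its role, after its value was seen. SRSF5 lay the other way, with 10.92, 10.76 and 10.76 in DMSO and 10.98, 11.11 and 10.99 in SRPIN803. Its treated arrays were all above its controls, and its change of 0.21 ± 0.07 was not called (limma's adjusted p = 0.151). It was likewise chosen after its value was seen.

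Among other kinases of SR proteins, 1 of 10 was called, against 5.84% of all genes. CLK4, a nuclear kinase of the CDC2-like family, read 8.17, 8.42 and 8.15 in DMSO and 8.58, 8.60 and 8.63 in SRPIN803. Every treated array lay above every control, and the change was 0.36 ± 0.08 (limma's adjusted p = 0.0490). Leaving out DMSO replicate 1, DMSO replicate 3 or each SRPIN803 replicate in turn ended the call (adjusted p up to 0.173), as did each of the 3 renormalizations. With 1 array left out the CLK4 change ran from 0.31 to 0.44. Another CLK4 probe set, at a level of 7.39, changed by 0.41 and was called in the fit of all probe sets (limma's adjusted p = 0.0458). The remaining ones, at levels of 5.00 and 2.68, lay below the median level. They changed by -0.56 ± 0.28 and 0.14 ± 0.14 and were not called. The mean of all CLK4 probe sets, these dim ones included, gave 0.085 (adjusted p = 0.692). Its list had a median of 0.07.

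Of chaperones, phosphatases, transport receptors and further substrates that act with SRPK kinases, 0 of 17 were called by limma, and 3 had an unadjusted p under 0.05, against 19.5% of all genes. With an intensity trend and robust variance limma called 3. The one with the smallest p was EGFR, the epidermal growth factor receptor gene, at -0.32 ± 0.08 (adjusted p = 0.0656), and the list's median was 0.01. Its other probe sets ran from -0.48 to 0.12.

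Of CK2 substrates and partners, 3 of 27 were called lower, against 2.37% of all genes, and 0 were called higher, against 3.46%. The list's median was 0.01 against 0.02 over all genes. NFKBIA, the inhibitor of NF-kappaB, read 8.71, 8.82 and 8.70 in DMSO and 8.10, 7.91 and 8.25 in SRPIN803, and changed by -0.66 ± 0.09 (limma's adjusted p = 0.00962). NOLC1, a nucleolar phosphoprotein heavily phosphorylated by CK2, changed by -0.36 ± 0.06 (adjusted p = 0.0144), and the AP-1 subunit gene JUN by -0.32 ± 0.07 (adjusted p = 0.0406). NFKBIA stayed called with any 1 array left out. Its other, dim probe set was at -0.08, and the mean of its probe sets gave -0.37 (adjusted p = 0.0204). NOLC1 lost the call without DMSO replicate 2 or 3 or SRPIN803 replicate 3, and JUN without any 1 of the 6 arrays (adjusted p up to 0.131). With 1 array left out the changes ran from -0.38 to -0.34 for NOLC1 and -0.36 to -0.26 for JUN. The other probe sets of NOLC1 were at -0.37 and -0.47, and those of JUN at -0.61, -0.57 and -0.32. Of these, the fit of all probe sets called only those of JUN at -0.61 and -0.57 (limma's adjusted p = 0.0265 and 0.0212). The mean of all probe sets gave -0.398 for NOLC1 and -0.455 for JUN (limma's adjusted p = 0.0092 and 0.0072). The list's count was 1 without DMSO replicate 2 or 3 or SRPIN803 replicate 3 and 2 without any 1 of the others. XRCC4 at 0.22, APC at 0.22, MDC1 at 0.19 and DVL2 at 0.17 were not called, with limma's adjusted p between 0.106 and 0.281. In these 4 genes, chosen after their values were seen, every treated array was above every control, as it was in HSP90AA1 at 0.10. RELA at -0.24 and ANP32A at -0.22 were not called either (limma's adjusted p = 0.0941 and 0.141). In both, every treated array was below every control. Groups did not overlap in 21.5% of all probe sets.

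The CK1 family carries a like name and belongs to another group of kinases. Of its 5 measured genes 0 were called by limma, also with a trend and robust variance. An unadjusted limma p under 0.05 was found for 2 of the 5, against 19.5% of all genes. The smallest p was that of CSNK1G1, at 0.19 ± 0.07 (adjusted p = 0.181), whose other probe sets ran from -0.41 to -0.01. The list's median was -0.04.

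**Figure D4:**
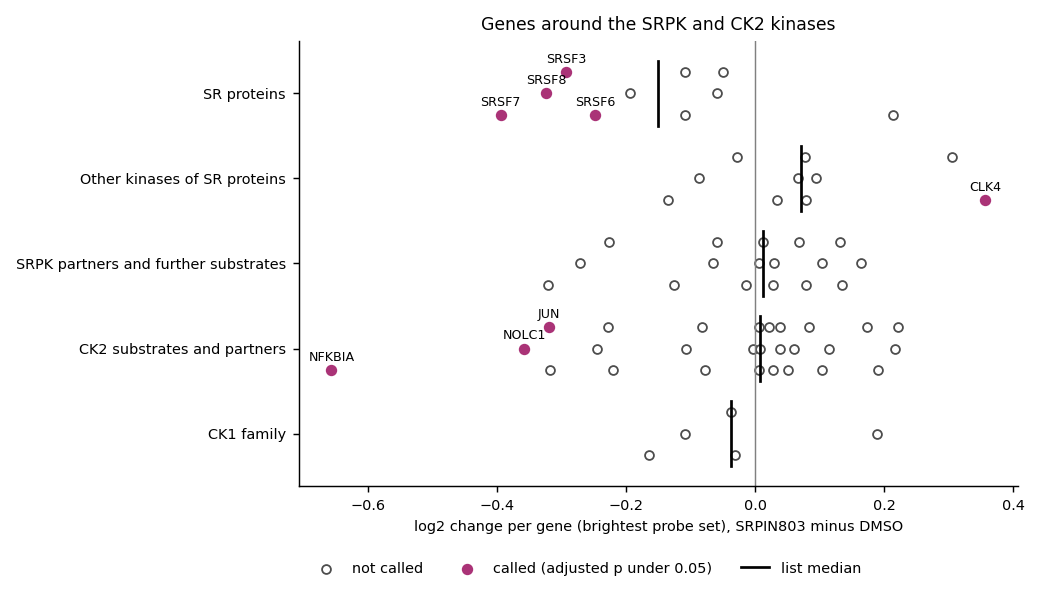
Change per gene (log2, SRPIN803 minus DMSO, brightest probe set, horizontal axis) in 5 lists of genes around SRPK and CK2 kinases, with called genes filled and labelled, others open, and the list median as a black bar; vertical offsets only separate points. The called genes are SRSF7, SRSF8, SRSF3, SRSF6, NFKBIA, NOLC1 and JUN below 0 and CLK4 above 0.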

How the data were processed

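Per the submitters' processing notes, the authors made the deposited log2 values with RMA, which corrects background, normalizes between arrays and summarises each probe set. The sources used here do not name its software or options. Sorted, the arrays differed by no more than 0.14, so a change in total RNA per cell is hidden. The values were used as deposited, without 62 control probe sets. Annotation named 1 gene for 41091 probe sets, several for 1801 and none for 11721. Arrays have no read depth, and their number limits precision.

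Probe sets, and genes by their brightest probe set, were tested with limma 3.58.1 in R 4.3.3 (group as the only term, two-sided, Benjamini-Hochberg over all). Errors beside changes are limma's standard errors. Unequal change within a gene was tested with limma's diffSplice, on probe sets no dimmer than the median and without _x_at. Paralog contrasts used an exact permutation test, with intervals from the pooled SD on 4 degrees of freedom. The members, lists and tests were chosen with earlier results of these data known. Up to 3 called genes per list were named by size of change, or the 1 with the smallest p. Some listed genes were not analysed here.

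Independent normal values were simulated with the mean level of each probe set and limma's moderated spread. There the probe set test recovered 51% of changes of 0.5 (log2) and 98% of changes of 1, among 200 of 54613, with 5.70% of its calls false. The real data had 1214 probe sets called, so recovery in them may differ. The diffSplice test recovered 73% and 99% among 200 of 5535 genes, with 10.9% of its calls false. Figures were made in Python 3.11.15 with matplotlib 3.10.9.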

Additional observations from a re-analysis of the deposited data

How the results depend on the processing

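No member probe set was called under any of the 13 alternatives, by array, normalization, filter, variance model, weights or block, and no member gene under these or with the mean of all its probe sets. The test for probe sets moving apart was run only with the replicate block, with all probe sets and with each array left out, and called no member there. The sign turned in 27 of 208 values. For 217517_x_at of SRPK2 the change was -0.011 after median centring, -0.010 after quantile normalization, -0.0087 after cyclic loess and -0.0085 with array weights. CSNK2B was at -0.0086 after median centring (-0.045 in the gene fit), -0.0067 after cyclic loess there, and -0.0056 with array weights (-0.0050). CSNK2A1's 206075_s_at was at 0.011 after quantile normalization. In the gene fit median centring gave -0.027 for SRPK1 and CSNK2A1 and -0.017 for SRPK2. The mean of all probe sets gave -0.063 for SRPK1, -0.091 for CSNK2A1, 0.055 for CSNK2A2 and -0.11 for CSNK1G1, and contrasts of 0.15 (CSNK2A2 minus CSNK2A1) and 0.094 (CSNK2B minus CSNK2A1).

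With 1 array left out, changes ran from -0.011 to 0.080 for 202200_s_at, -0.022 to 0.095 for 203182_s_at, -0.21 to 0.069 for 203181_x_at, -0.054 to 0.13 for 1558254_s_at, -0.026 to 0.077 for 230091_at and -0.094 to 0.10 for 217517_x_at. They ran from -0.066 to 0.081 for 206075_s_at, -0.057 to 0.019 for 224922_at and -0.017 to 0.025 for CSNK2B. The contrasts ran from -0.058 to 0.11 for SRPK2 minus SRPK1, -0.075 to -0.0040 for CSNK2A2 minus CSNK2A1 and -0.043 to 0.024 for CSNK2B minus CSNK2A1. The cause was not tested.

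Counts over the whole table moved more. Against 1214 probe sets and 1154 genes called, 2667 and 1904 were called among those at or above the median level, and 2997 and 2036 with trend and robust variance. With 1 array left out they were 215 to 716 probe sets, 324 to 687 genes and, of 186 genes with probe sets apart, 41 to 290. List counts under these alternatives were added after seeing the data. With 1 array left out they were 0 to 2 for SR proteins, 0 to 2 for their other kinases, 0 to 1 for SRPK partners and 1 to 2 for CK2 substrates. The median level filter gave 2, 2 and 6 called for other kinases, SRPK partners and CK2 substrates, and the trend and robust variance 2, 3 and 6. For SR proteins the filter gave 5 and that variance model 6. Median centring, quantile normalization and cyclic loess gave 4, 3 and 4 SR proteins. Other kinases had 0 called after median centring, quantile normalization or cyclic loess and with the mean of probe sets, SR proteins 0 with that mean, and SRPK partners 1 after median centring. EGFR was called under that filter and that variance model.

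The labels do not say that replicate numbers pair arrays, so the numbers were not taken as pairs. Deviations of arrays with equal replicate number correlated at 0.14, -0.071 and 0.066, and those of unlike numbers at 0.12 at most. With the replicate number as a block, 304 probe sets, 689 genes and 122 genes with probe sets apart were called, 1 SR protein and 0 other kinases. In this balanced design the block cannot move the estimated changes.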
